A study of Mus musculus with 96 samples.

Results

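The regions described here were the flank peaks of promoters in neuronal nuclei of the mouse hippocampus, that is, consensus peaks of histone H3 lysine 4 trimethylation (H3K4me3) that the authors had annotated at 1 to 2 kb or 2 to 3 kb from the closest annotated gene start. Of the 12628 H3K4me3 peaks in NeuN+ nuclei, 120 met this rule, all of them at 1 to 2 kb and 0 at 2 to 3 kb, against 11651 core peaks within 1 kb of a start and 857 peaks elsewhere. The 6 peak tables of the series (3 antibodies in 2 nuclear fractions) held 22815 peaks in all. Chromatin was taken from hippocampi of male C57BL/6N mice aged 6 months, with hippocampi of several animals of a genotype pooled per replicate, and nuclei were sorted on NeuN, a neuronal nuclear protein. The 4 genotypes were WT (wild type), single knockouts of Mutyh (Mutyh-/-) or Ogg1 (Ogg1-/-), and Mutyh-/-xOgg1-/-, the double knockout (DKO), with 3 replicates each and 12 libraries. The deletions were constitutive and so present in every cell of the animal. Ogg1 removes oxidised guanine from DNA and Mutyh the adenine mispaired with it, each as the opening step of base excision repair.

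Trimethylation of H3K4 is laid down by SET1 and MLL methyltransferase complexes at the starts of active and poised genes, and it is densest over the nucleosomes on both sides of the start. CpG islands, stretches rich in the dinucleotide CpG, draw these complexes through CXXC domain proteins. At broadly marked genes the mark runs from the start into the gene body.

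Each peak was a window of 401 bp, which is where reads were counted and not the extent of the enriched region. A deposited value is the number of reads in the window times 1 constant per library, and levels below are these values or their log2 after adding 1. The edge of a flank window nearest to the start lay 1018 to 1996 bp from it, so its centre lay 1218 to 2196 bp away. Of the 120 windows, 81 were downstream of the start and 39 were upstream. By the GENCODE M21 annotation on GRCm38, the centre lay in an intron in 45, in coding sequence in 33, in intergenic sequence in 20, in an exon of a non-coding transcript in 12 and in a UTR in 10. For 15 windows the centre was within 1 kb of the start of a GENCODE transcript, and without them the flank level given below changed little (-0.70 in place of -0.66). Each of the 120 windows was annotated to a different gene. For 87 of them the table held no core peak of the same gene, and only 11 lay within 3 kb of any core peak.

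Sequences of 8 of these windows, whose values are described further on, are shown with their CpGs. The central 201 bases are given, read from GRCm38 on the plus strand, with each CpG in capitals. The windows belong to genes taken in the order of the naming rule, with those that touched an annotated UTR left out. They are Wnt6 (chr1:74784147-74784347, coding sequence), Plin1 (chr7:79721502-79721702, coding sequence), Sgk1 (chr10:21998597-21998797, coding sequence), Gas2l1 (chr11:5062799-5062999, intron), Sfmbt2 (chr2:10373678-10373878, non-coding exon of Gm13261), Fam110d (chr4:134251412-134251612, coding sequence), Kif26a (chr12:112144879-112145079, intergenic) and Rn45s (chr17:39844591-39844791, non-coding exon).
Wnt6: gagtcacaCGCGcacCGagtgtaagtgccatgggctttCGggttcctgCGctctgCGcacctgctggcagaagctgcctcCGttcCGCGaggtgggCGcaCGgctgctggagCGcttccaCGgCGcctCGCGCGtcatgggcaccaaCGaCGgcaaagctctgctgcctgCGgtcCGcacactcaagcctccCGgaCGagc
Plin1: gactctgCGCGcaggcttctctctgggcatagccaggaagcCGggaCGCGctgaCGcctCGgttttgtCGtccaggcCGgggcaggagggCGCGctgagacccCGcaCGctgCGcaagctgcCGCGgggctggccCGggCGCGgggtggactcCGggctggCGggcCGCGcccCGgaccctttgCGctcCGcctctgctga
Sgk1: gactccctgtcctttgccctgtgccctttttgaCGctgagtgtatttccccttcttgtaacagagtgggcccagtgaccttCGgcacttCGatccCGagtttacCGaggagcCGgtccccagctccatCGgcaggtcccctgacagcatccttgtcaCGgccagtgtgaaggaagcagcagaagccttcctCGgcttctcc
Gas2l1: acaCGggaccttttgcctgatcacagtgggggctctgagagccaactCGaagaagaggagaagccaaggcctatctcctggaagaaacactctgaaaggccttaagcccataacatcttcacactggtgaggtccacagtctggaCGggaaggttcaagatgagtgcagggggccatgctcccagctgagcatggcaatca
Sfmbt2: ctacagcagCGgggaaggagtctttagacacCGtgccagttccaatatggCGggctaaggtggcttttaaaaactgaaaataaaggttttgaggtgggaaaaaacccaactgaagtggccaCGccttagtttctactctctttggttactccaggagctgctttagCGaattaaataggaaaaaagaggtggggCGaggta
Fam110d: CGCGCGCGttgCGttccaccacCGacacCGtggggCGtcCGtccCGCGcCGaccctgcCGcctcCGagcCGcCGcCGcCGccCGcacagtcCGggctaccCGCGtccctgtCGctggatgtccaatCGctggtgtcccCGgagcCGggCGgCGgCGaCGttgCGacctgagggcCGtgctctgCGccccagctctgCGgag
Kif26a: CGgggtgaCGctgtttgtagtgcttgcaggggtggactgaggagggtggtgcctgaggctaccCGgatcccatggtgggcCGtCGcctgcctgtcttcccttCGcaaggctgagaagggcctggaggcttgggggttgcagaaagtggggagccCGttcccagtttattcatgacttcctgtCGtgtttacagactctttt
Rn45s: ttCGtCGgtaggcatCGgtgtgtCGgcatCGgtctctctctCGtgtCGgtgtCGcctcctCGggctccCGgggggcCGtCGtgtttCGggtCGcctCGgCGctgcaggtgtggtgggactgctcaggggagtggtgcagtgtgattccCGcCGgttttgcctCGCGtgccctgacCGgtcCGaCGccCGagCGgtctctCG
The Fam110d window held 34 CpGs in 201 bases, the Plin1 and Rn45s windows 26 each and the Wnt6 window 23. The Gas2l1 window held 3, the Sfmbt2 window 6, the Kif26a window 8 and the Sgk1 window 9.

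Of the 39 upstream windows, 10 were annotated to a microRNA, and no microRNA window was downstream. The annotated start of a microRNA gene is the 5′ end of its hairpin, which is cut from a longer primary transcript that begins further upstream. The mature microRNAs of 6 of these 10 genes are shown to identify them, 5′ to 3′ from RefSeq (GRCm38.p6) with the seed, bases 2 to 8, in capitals.
mmu-miR-17-5p: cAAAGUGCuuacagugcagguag
mmu-miR-193b-3p: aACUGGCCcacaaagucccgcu
mmu-miR-497a-5p: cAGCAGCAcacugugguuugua
mmu-miR-125b-5p: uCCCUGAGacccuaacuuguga
mmu-miR-149-5p: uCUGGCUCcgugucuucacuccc
mmu-miR-9-5p: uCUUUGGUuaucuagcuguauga
No 2 of the 18 mature sequences of the 10 genes shared a seed. The H3K4me3 windows of these genes lay in an intron of another transcript in 6 cases. The highest mean value over 12 libraries was at Mir17 (26.2, chr14:115041331-115041731), the first microRNA of a cluster known for its role in proliferation, whose window was 1348 bp from the GENCODE start of the host transcript Mir17hg. The lowest was at Mir9-3 (4.34, chr7:79503445-79503845), one of the genes of miR-9, a microRNA of the nervous system. The median over the 10 was 13.1, against 14.8 over all 120 flank peaks.

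Libraries held 96023 (DKO replicate 1) to 548706 (Ogg1-/- replicate 3) reads in peaks. A median flank peak had 4 reads in DKO replicate 1 and 9.5 to 27.5 in the other 11 libraries, and 95 of the 120 flank peaks had at least 1 read in every library. A count of 0 allows up to 3 reads, and limits of this kind cover counting error only. The coefficient of variation of a flank peak over the 12 libraries ranged from 18.5% (Nr4a3) to 107% (Coil), with a median of 44.5%. Of 8 neuronal marker genes, 7 had a promoter peak in NeuN+ nuclei (all but Gad2) and 0 had one in the NeuN- table. Of 17 non-neuronal marker genes, 3 had one in NeuN+ nuclei (Slc1a3, Mbp and Oaf) and 2 in the NeuN- table (Olig1 and Oaf), so that the smaller NeuN- table held few markers of either kind. Mean values of the highest promoter peak of each gene in NeuN+ nuclei were 9.35 (Gad1) to 29.5 (Rbfox3) at the neuronal genes, and 14.1 at Slc1a3, 28.6 at Mbp and 10.1 at Oaf, within the same range. Gfap, Aqp4, Olig2, Sox10, Cx3cr1 and Cldn5 had no promoter peak in either table.

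The first question was how strongly a flank carried the mark compared with a core promoter. Flank peaks were lower than core peaks in every library. The median deposited value of the flank peaks was 16.7, 11.7 and 15.1 in WT, 10.4, 12.9 and 16.6 in Mutyh-/-, 16.7, 10.3 and 21.1 in Ogg1-/-, and 9.02, 16.1 and 16.7 in DKO. The median of the core peaks was 27, 17.6 and 25.8 in WT, 17.4, 22.1 and 27.2 in Mutyh-/-, 25, 16.4 and 33.8 in Ogg1-/-, and 15.8, 27.3 and 25.8 in DKO. A median flank peak therefore carried 57.1% (DKO replicate 1) to 66.7% (WT replicate 2 and Ogg1-/- replicate 1) of the value of a median core peak. On the log2(value + 1) scale the flank median was below the core median in each library, with differences from -0.74 to -0.55 and a mean difference of -0.66 ± 0.07 (SD, n = 12 libraries), and it was below in 12 of 12 libraries (exact two-sided sign-flip permutation test over libraries, p = 0.000488, the smallest that 12 libraries can give). Fewer nuclei with the mark and less mark per nucleus cannot be told apart in these bulk libraries.

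**Figure D1:**
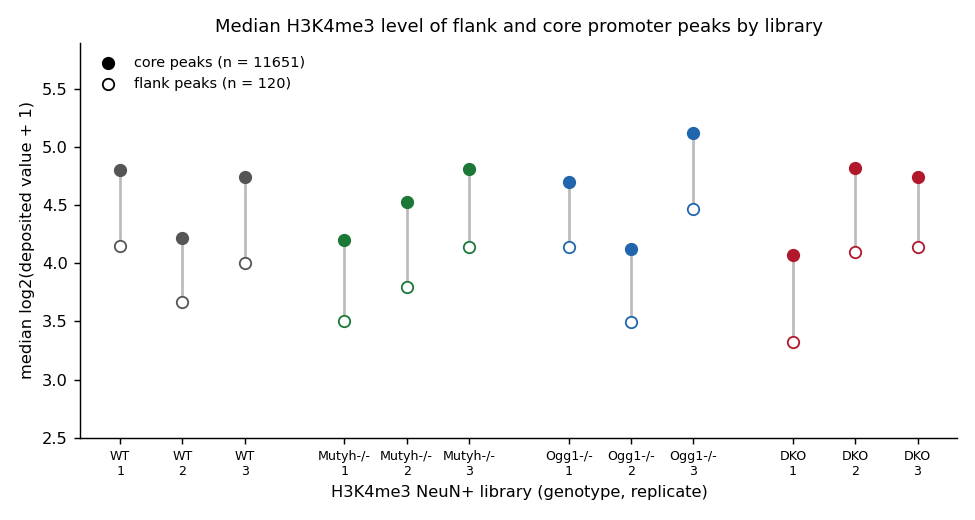
Median H3K4me3 level of the 120 flank peaks (open circles) and the 11651 core peaks (filled circles) in each of the 12 NeuN+ libraries, coloured by genotype, as log2(deposited value + 1) on the vertical axis. The flank median is below the core median in all 12 libraries, and both move together from library to library.

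The 2 distributions overlapped. A mean value over the 12 libraries of 14.8 at the median flank peak was higher than that of 13.8% of the core peaks, and 15 of 120 flank peaks exceeded the core median of 24.4. The 857 peaks elsewhere had a median of 14.2 (quartiles 10.5 and 18.3), much like the flank peaks (quartiles 10.6 and 20.2). A level below core was thus not particular to flanks, as a description with no test. Among the flank peaks, 65.0% were among the lowest 25% of all peaks (mean value up to 17.0), against 21.3% of the core peaks. Without these low peaks, 42 flank peaks were left and the mean difference between the medians was -0.18 on the log2 scale (exact sign-flip permutation, p = 0.000977). Since the filter cuts on the level itself, the smaller difference cannot show what the low peaks contribute. A window entered the table only where enrichment had been called, so flanks without a called peak are not in either median. At the edge of the rule, the flank peaks nearest to the start were those of Coil (1018 bp, mean value 4.61) and Neurod2 (1028 bp, 21.4), and the core peaks furthest from it those of Ppp1r3g (1000 bp, 20.5) and Crmp1 (990 bp, 8.68).

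Within the flank, levels were much alike at all distances, as a description with no test. Median mean values were 14.2 for the 35 peaks whose edge was at 1000 to 1250 bp, 14.8 for 39 at 1250 to 1500 bp, 15.6 for 25 at 1500 to 1750 bp and 14.2 for 21 further out. The upstream median minus the downstream median was -0.04 ± 0.25 (log2 scale, SD, n = 12 libraries) and negative in 7 of 12 libraries (exact sign-flip permutation, p = 0.691). The largest departure was in DKO replicate 1, the library with the fewest reads, where upstream peaks were higher by 0.66.

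**Figure D2:**
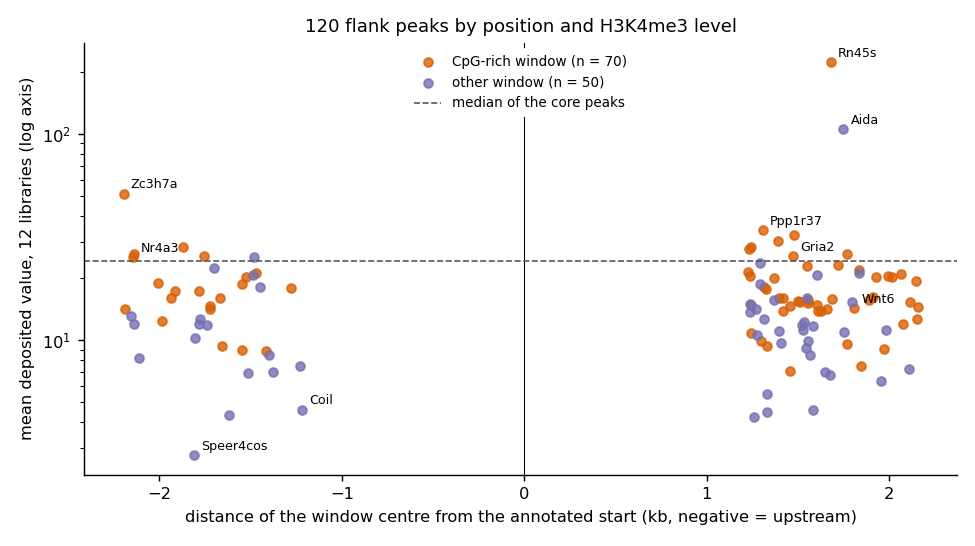
Mean deposited H3K4me3 value over 12 libraries (log axis) of each of the 120 flank peaks against the distance of its centre from the annotated start in kb, negative upstream; orange windows are CpG-rich, violet windows are not, and the dashed line is the core median of 24.4. Rn45s, Aida and Zc3h7a stand above the other peaks, and most CpG-poor windows lie low on both sides.

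Flank windows were less rich in CpG than core windows, which is given as a description with no test. The median GC content was 61.0% in flank, 67.1% in core and 61.1% in the other peaks. The ratio of observed to expected CpG had medians of 0.664, 0.80 and 0.691, and a median window held 23, 35 and 25 CpGs. A window was called CpG-rich at a GC content of at least 50% and a ratio of at least 0.6, which held for 70 of the 120 flank windows (58.3%), 83.0% of the core windows and 57.4% of the others.

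CpG-rich flank windows carried more of the mark than the other flank windows. The median of CpG-rich flank peaks was above that of the other flank peaks by 0.61 ± 0.14 (log2 scale, SD, n = 12 libraries), in 12 of 12 libraries (exact sign-flip permutation, p = 0.000488). CpG content was compared after the values had been seen. Flank remained below core within each kind of window, with a mean difference of -0.50 ± 0.08 for CpG-rich windows and -0.70 ± 0.09 for the rest (12 of 12 libraries each, exact sign-flip permutation, p = 0.000488 in both). For windows with a ratio under 0.4 the median mean value was 9.98 over 28 flank peaks and 15.5 over 471 core peaks, and for a ratio of 0.8 to 1.0 it was 16.7 over 24 and 26.3 over 4635.

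**Figure D3:**
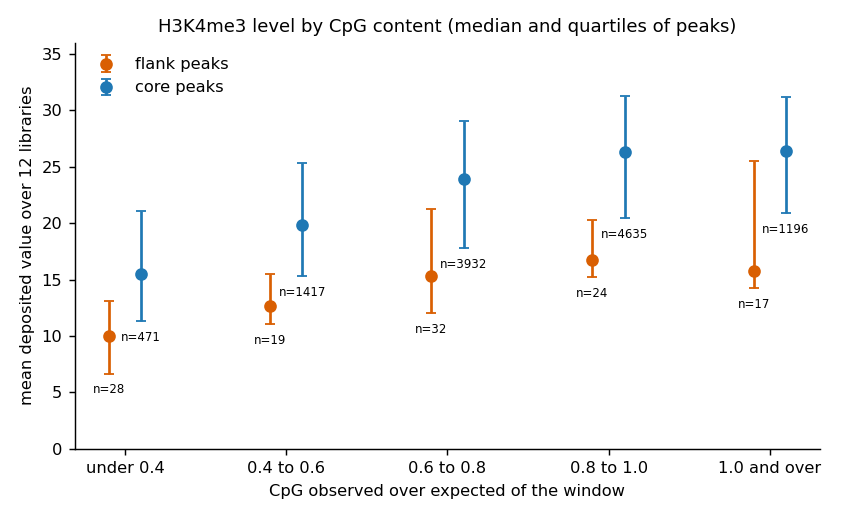
Median and quartiles (bars) over peaks of the mean deposited H3K4me3 value, for flank (orange) and core (blue) peaks in 5 bins of the ratio of observed to expected CpG, with the number of peaks n under each. The flank median is lower than the core median in each bin, from 9.98 against 15.5 under a ratio of 0.4 to 16.7 against 26.3 at 0.8 to 1.0.

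Flank peaks varied more between libraries than core peaks as a whole, and about as much as core peaks of the same level. The median residual SD of log2(value + 1) within genotypes was 0.698 for flank and 0.564 for core peaks. For the 60 flank and 3296 core peaks with a mean value between 10.6 and 20.2, the quartiles of the flank peaks, it was 0.661 and 0.660. These values are a description, since peaks of 1 library are not replicates.

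For 33 genes the table held a flank peak and a core peak, so that both could be compared in the same gene. The centres of the 2 peaks were 1216 bp (Tmem178) to 137383 bp (Tmcc1) apart, with a median of 4493 bp. A flank centre lay at most 2196 bp from its start, and the near edge of a core window within 1 kb. Pairs at the median distance or beyond were therefore at different annotated starts of the gene, and do not show the profile around 1 start. The flank was lower on average in 25 genes and higher in 8. The median difference over the 33 genes was negative in 12 of 12 libraries, with a mean of -0.53 ± 0.20 (log2 scale, SD, n = 12 libraries, exact sign-flip permutation, p = 0.000488). It was -0.47 in the 17 genes with both peaks within 5 kb. Without pairs that had a peak among the lowest 25%, only 4 genes were left and the sign turned, to 0.11 (exact sign-flip permutation, p = 0.204). This filter cuts on the level that is compared, so it cannot show what the low peaks contribute.

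In 8 genes the flank was below the core in all 12 libraries, and in 0 was it above in all 12. The largest deficits of the flank by the naming rule were at Tmcc1, a transmembrane protein of the endoplasmic reticulum, with -2.90 ± 1.04 (log2 difference, SD, n = 12), at Coil, the scaffold of Cajal bodies, with -2.71 ± 1.53, and at Tmem178 with -2.10 ± 1.16. The Tmem178 flank had values of 6.43, 7.81 and 3.23 in WT, 9.81, 9.19 and 12.3 in Mutyh-/-, 9.52, 3.08 and 11.5 in Ogg1-/-, and 0, 16.9 and 12.1 in DKO. Its core peak had values of 61.7, 26.3 and 29.1 in WT, 10.9, 48.7 and 29.8 in Mutyh-/-, 41.7, 24.6 and 66.9 in Ogg1-/-, and 22.6, 29 and 40.2 in DKO. The core was thus the higher peak in each of the 12 libraries. The Tmcc1 window was the only flank window that consisted to at least 50% of repeat sequence, and the Coil window held no CpG, with a ratio of 0. The flank and core peaks of Tmcc1 and Coil, 137383 and 5321 bp apart, were at different annotated starts.

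The largest surpluses of the flank were at Ppp1r13l, an inhibitor of p53, with 0.87 ± 1.15, at Nr4a3, a nuclear receptor of the immediate early genes, with 0.66 ± 0.63, at Smtn, a protein of smooth muscle filaments, with 0.65 ± 1.38, at Tns1, a focal adhesion protein, with 0.57 ± 1.25, and at Zc3h7a, a zinc finger protein, with 0.57 ± 0.76. The Nr4a3 flank lay 2144 bp upstream of the start and had values of 28.3, 29.3 and 24.8 in WT, 19.6, 28.5 and 21.9 in Mutyh-/-, 22.6, 23.6 and 30.8 in Ogg1-/-, and 15.8, 29.8 and 28.8 in DKO. The core peak of Nr4a3, 2861 bp away, had values of 21.9, 20.5 and 28 in WT, 5.45, 23 and 12.3 in Mutyh-/-, 20.2, 5.13 and 23.8 in Ogg1-/-, and 6.77, 21.7 and 20.5 in DKO. The flank was the higher of the 2 in 11 of 12 libraries, the steadiest surplus of the 5. At Ppp1r13l, Smtn and Zc3h7a the core was the higher peak in 3 libraries each, and at Tns1 in 2. The flank and core peaks of Ppp1r13l, Smtn, Zc3h7a and Tns1 were 10474, 3524, 31987 and 26148 bp apart, at different annotated starts.

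**Figure D4:**
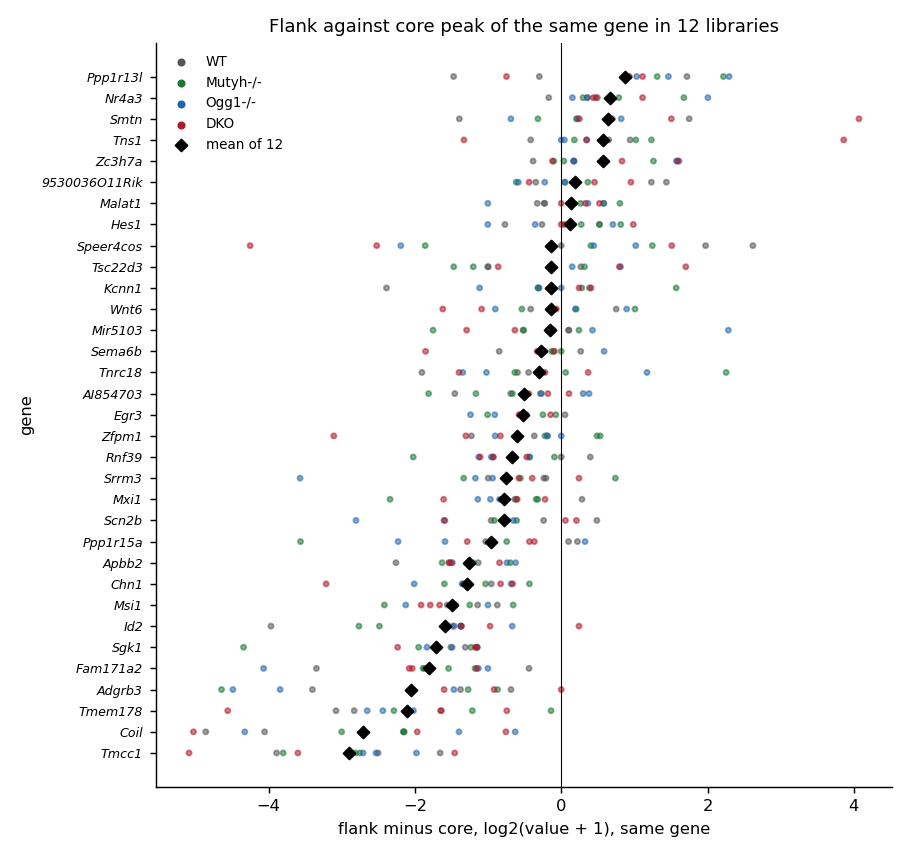
Difference between the flank and the core peak of the same gene, log2(value + 1), for 33 genes ordered by their mean; small points are the 12 libraries coloured by genotype and black diamonds their mean. The mean lies left of 0 for 25 genes and right of 0 for 8, and the points of a gene spread over several log2 units at weak peaks such as Speer4cos.

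The strongest flank peaks were those of Rn45s, the 45S precursor of ribosomal RNA, of Aida, a protein that binds axin, and of Zc3h7a. Their mean values over 12 libraries were 223, 105 and 51.5, that is 15.1, 7.13 and 3.49 times the flank median, and they ranked 3, 10 and 16 among all 12628 peaks. Rn45s had values of 199, 110.2 and 109.8 in WT, 206, 257 and 296 in Mutyh-/-, 375, 105 and 451 in Ogg1-/-, and 144, 93.3 and 324 in DKO. Both the lowest and the highest value came from knockouts (DKO replicate 2 and Ogg1-/- replicate 3). Ribosomal RNA genes are present in many copies in the mouse genome, and the share of reads that came from other copies was not tested. Aida had values of 103, 153 and 6.46 in WT, 172, 91.9 and 59.6 in Mutyh-/-, 196, 28.7 and 155 in Ogg1-/-, and 104, 41.8 and 151 in DKO. WT replicate 3 had the lowest value of the 12 libraries, and the genotypes overlapped.

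These 3 peaks were strong in other tables as well. In the H3K4me3 NeuN- table, of 3270 peaks, the windows at Rn45s, Aida and Zc3h7a ranked 10, 14 and 21, with mean values of 256, 114 and 76.4. In the H3K27me3 NeuN+ table, of 4132 peaks, those at Aida and Zc3h7a ranked 10 and 11, with 244 and 202, and in the Suz12 NeuN+ table, of 775 peaks, 15 and 14, with 92.3 and 122. H3K4me3 and H3K27me3 mark active and repressed promoters, and Suz12 is a subunit of Polycomb repressive complex 2 (PRC2), which writes H3K27me3. The part of signal independent of the antibody in these values was not tested. The Zc3h7a window was 22 bp from the GENCODE start of the small non-coding gene Gm23935. The next 2 in the order of strength were Ppp1r37, a regulatory subunit of protein phosphatase 1, with 34.1, and Prmt8, a protein arginine methyltransferase found mainly in brain, with 32.4.

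Peaks of the other tables overlapped few of the flank windows. An H3K27me3 NeuN+ peak shared at least 1 bp with 3 of 120 flank windows (2.5%), against 1.10% of core windows and 8.05% of the others. The third, beside Aida and Zc3h7a, was H2-Ab1, a class II histocompatibility gene. A Suz12 peak did so at 9 flank windows (7.5%), 1.21% of core and 9.92% of other windows. Beside Aida, Zc3h7a and H2-Ab1, the 9 were Coil, Fam110d, the Wnt ligand gene Wnt8b and the genes of the transcription factors Nhlh2, Nkx1-2 and Sall1. Sall1 had the highest Suz12 value of these 6, 18.6 as the mean of 12 libraries, which ranked 81 of 775, and a low H3K4me3 value of 7.11. The Suz12 peaks at Nkx1-2, Wnt8b, Fam110d, Nhlh2 and Coil ranked lower, at 437, 505, 535, 576 and 707 of 775. These overlaps were examined with their values in view and no test was made.

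In the NeuN- table, 19 flank windows (15.8%) overlapped an H3K4me3 peak, against 24.7% of core windows. The overlapping peak was annotated at 1 to 2 kb for 15, within 1 kb for 3 and as distal intergenic for Mir17. Relative to the core median of each library, the 16 windows other than Rn45s, Aida and Zc3h7a had a median log2 difference of -0.56 in NeuN- and -0.26 in NeuN+. The highest of these 16 in NeuN- was Zfp503, a zinc finger gene, with 0.66 ± 0.47 (SD, n = 12 libraries), where the NeuN+ difference was -0.22 ± 0.57. The tables were scaled separately, so that only levels relative to the core median of a table are given.

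Among the gene lists used for description, neuronal and synaptic genes had 3 members with a flank peak among 56 with any peak (5.36%), immediate early genes 2 of 22 (9.09%) and developmental regulators 1 of 18 (5.56%). Over all 11512 genes with a peak the share was 1.04%. The 6 glial and vascular genes, the 19 H3K4 methylation enzymes, the 11 PRC2 genes and the 16 base excision repair genes with a peak had 0 flank peaks. No test was made on these counts. Of 13 genes that the naming rule took from the study, Wnt6 alone had a flank peak, and no H3K4me3 peak was annotated to Mutyh.

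Gria2, an AMPA receptor subunit, carried its mark 1471 bp downstream of the start (chr3:80800908-80801308), with values of 27, 18.5 and 30.2 in WT, 29.4, 22.1 and 17.5 in Mutyh-/-, 30.9, 9.23 and 43.1 in Ogg1-/-, and 27.1, 24.9 and 27.3 in DKO. It ranked 12 among the 120 flank peaks. Neurod2 and Neurod1 are transcription factors of neuronal differentiation. Neurod2 had values of 16.7, 11.7 and 24.8 in WT, 8.72, 11.9 and 28 in Mutyh-/-, 26.2, 19.5 and 34.6 in Ogg1-/-, and 9.02, 29 and 36.4 in DKO. Neurod1 had values of 7.72, 17.6 and 4.31 in WT, 5.45, 5.51 and 1.75 in Mutyh-/-, 8.33, 4.1 and 13.1 in Ogg1-/-, and 4.51, 5.63 and 6.06 in DKO. The mean over 12 libraries was 21.4 for Neurod2 in a window with 75.3% GC and 7.0 for Neurod1 in a window with 51.4%, and Neurod2 was the higher in all libraries but WT replicate 2. Egr3, a transcription factor gene induced by neuronal activity, had values of 15.4, 26.3 and 15.1 in WT, 9.81, 16.5 and 17.5 in Mutyh-/-, 16.7, 19.5 and 15.4 in Ogg1-/-, and 20.3, 20.1 and 15.9 in DKO, and its flank minus core difference was -0.52 ± 0.39 (log2 scale, SD, n = 12), negative in 11 of 12 libraries. The genotypes overlapped at all 4 of these genes.

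The second question was whether loss of the glycosylases changed the flank relative to the core. The mean difference between flank and core medians was -0.65 ± 0.10 in WT, -0.70 ± 0.03 in Mutyh-/-, -0.61 ± 0.05 in Ogg1-/- and -0.69 ± 0.08 in DKO (log2 scale, SD, n = 3, exact permutation p = 0.5, 0.6 and 0.6 against WT). The knockouts differed from WT by -0.05, 0.04 and -0.04, less than the SD of the WT libraries. With 3 libraries against 3 an exact permutation test cannot give a p below 0.1. The sign of these differences was not steady, since taking means over peaks in place of medians gave 0.0426 for Mutyh-/- and 0.0828 for DKO. For the 33 genes with a peak of each kind, the median flank minus core difference was -0.48 ± 0.18 in WT, -0.42 ± 0.25 in Mutyh-/-, -0.74 ± 0.15 in Ogg1-/- and -0.50 ± 0.14 in DKO (log2 scale, SD, n = 3). The knockouts differed from WT by 0.06, -0.25 and -0.02 (exact permutation p = 0.8, 0.3 and 0.9), so that the Ogg1-/- difference was larger than the SD of the WT libraries and opposite in sign to that over all flank and core peaks.

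The share of all reads in peaks that fell in flank peaks was 0.652, 0.729 and 0.639 in WT, 0.765, 0.765 and 0.713 in Mutyh-/-, 0.828, 0.663 and 0.783 in Ogg1-/-, and 0.725, 0.641 and 0.782 in DKO (percent). Means were 0.673 ± 0.049 in WT, 0.748 ± 0.030 in Mutyh-/-, 0.758 ± 0.085 in Ogg1-/- and 0.716 ± 0.071 in DKO (SD, n = 3, exact two-sided permutation p = 0.2, 0.2 and 0.6, adjusted p = 0.6 for each over the 6 comparisons of the level and the share). The 3 strongest peaks held 6.96% to 26.0% of the flank reads of a library. Without the Rn45s peak the means were 0.627 ± 0.048, 0.658 ± 0.029, 0.666 ± 0.048 and 0.652 ± 0.035, so that the difference from WT fell from 0.0743 to 0.0313 percentage points for Mutyh-/- and from 0.0844 to 0.0396 for Ogg1-/-.

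Single flank peaks were then compared by genotype. A peak was called a differentially enriched region (DER) where limma, fitted over all 12628 peaks, gave p under 0.05 before adjustment and a log2 fold change against WT beyond 0.5 in either direction. Of the 120 flank peaks, 1 was a DER in Mutyh-/- (0.911% of all peaks were called), 3 in Ogg1-/- (0.966%) and 1 in DKO (1.46%). All 5 calls were higher in the knockout, which held for 0.341%, 0.752% and 0.483% of all peaks. This direction was not stable. In Ogg1-/-, 3 of 6 flank DERs were higher by limma with TMM factors and 1 of 10 without Ogg1-/- replicate 3, and the 1 flank DER left without Mutyh-/- replicate 2, DKO replicate 2 or DKO replicate 3 was lower in the knockout. The 5 calls fell on 4 genes, Plin1 in Mutyh-/-, Sfmbt2 and Slc35e4 in Ogg1-/-, and Fam110d in Ogg1-/- and DKO. At an adjusted p under 0.05, limma, edgeR and DESeq2 called 0 flank peaks in each contrast, with 1, 3 and 1 at an unadjusted p under 0.05 by limma and 1, 8 and 2 by edgeR with TMM factors, all of them DERs (4.01%, 3.97% and 3.88% of all peaks). Of the 8 that edgeR called in Ogg1-/-, 7 were higher, as were 2.02% of all peaks. With TMM factors in place of the authors' scaling, limma called 2, 6 and 3 flank DERs, beside 3.75%, 3.81% and 5.54% of all peaks. The number of calls thus depended on the scaling of libraries. In the main fit the median log2 fold change of the flank peaks was 0.01, 0.15 and -0.01 in Mutyh-/-, Ogg1-/- and DKO, beside -0.07, 0.08 and -0.02 for all peaks. The median SE was 0.61 for flank and 0.47 for core peaks, so 0 adjusted calls do not show that flank peaks were unchanged.

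Plin1, a coat protein of lipid droplets, had a CpG-rich window in coding sequence (chr7:79721402-79721802) with values of 9.0, 6.83 and 9.69 in WT, 25.1, 26.6 and 21 in Mutyh-/-, 11.9, 4.1 and 27.7 in Ogg1-/-, and 13.5, 10.5 and 24.3 in DKO. The 3 Mutyh-/- libraries were all above the 3 WT libraries (24.2 ± 2.9 against 8.51 ± 1.49, SD, n = 3, log2 fold change 1.41, SE 0.60, limma unadjusted p = 0.0244, adjusted p = 1.0). The call was lost without WT replicate 2, Mutyh-/- replicate 1 or Mutyh-/- replicate 2. The DKO libraries were also all above WT, with a log2 fold change of 0.78 (SE 0.60) that did not pass.

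Fam110d (chr4:134251312-134251712), whose window is the one with 34 CpGs above, had values of 10.3, 6.83 and 5.38 in WT, 10.9, 12.9 and 14 in Mutyh-/-, 23.8, 8.21 and 31.5 in Ogg1-/-, and 18, 20.1 and 21.2 in DKO. Each DKO and each Mutyh-/- library was above each WT library, and the Ogg1-/- libraries spanned 8.21 to 31.5. The mean was 7.5 ± 2.52 in WT and 19.8 ± 1.61 in DKO (SD, n = 3, log2 fold change 1.33, SE 0.57, limma unadjusted p = 0.0268, adjusted p = 1.0). In Ogg1-/- the log2 fold change was 1.24 (SE 0.57, limma unadjusted p = 0.0379). Both calls were lost without WT replicate 2 or WT replicate 3, which the 2 contrasts share, and each without 2 knockout libraries, replicates 1 and 3 of Ogg1-/- and replicates 2 and 3 of DKO. The window also overlapped a Suz12 NeuN+ peak with a mean value of 7.54, which ranked 535 of 775.

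Sfmbt2, a Polycomb group gene that is imprinted in mouse, had values of 3.86, 0 and 0 in WT, 3.27, 2.76 and 7.01 in Mutyh-/-, 21.4, 4.1 and 6.92 in Ogg1-/-, and 6.77, 3.22 and 6.82 in DKO. These were 3, 0 and 0 reads in WT and 18, 4 and 9 in Ogg1-/-, where 3 reads is the limit that a count of 0 allows. The log2 fold change in Ogg1-/- was 2.51 (SE 1.01, limma unadjusted p = 0.0176), and the call was lost without WT replicate 2, WT replicate 3 or Ogg1-/- replicate 1. Its window was 263 bp from the GENCODE start of Gm13261. Slc35e4, a gene of the solute carrier family, had values of 28.3, 5.85 and 20.5 in WT, 18.5, 26.6 and 26.3 in Mutyh-/-, 36.9, 26.7 and 43.8 in Ogg1-/-, and 6.77, 16.1 and 26.5 in DKO. Ogg1-/- replicate 2 was below WT replicate 1, so the groups overlapped (log2 fold change 1.15, SE 0.52, limma unadjusted p = 0.0345). The call was lost without WT replicate 2, Ogg1-/- replicate 1 or Ogg1-/- replicate 3.

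The other peaks with the smallest p values were not DERs. Sgk1, a kinase induced by glucocorticoids, had values of 10.3, 7.81 and 11.8 in WT, and 5.45, 7.35 and 0 in Mutyh-/-. Gas2l1, a linker of the cytoskeleton, had values of 9.0, 14.6 and 7.54 in WT, and 0, 7.35 and 4.38 in Mutyh-/-. Both genes had all Mutyh-/- libraries below all WT libraries, with log2 fold changes of -1.52 (SE 0.86) and -1.63 (SE 0.98). Kif26a, an atypical kinesin, had values of 0, 2.93 and 8.62 in WT, and 9.02, 13.7 and 9.85 in DKO, with a log2 fold change of 1.80 (SE 0.97). Wnt6, a secreted Wnt ligand, had values of 18, 8.78 and 15.1 in WT, 14.2, 12.9 and 18.4 in Mutyh-/-, 15.5, 7.18 and 32.3 in Ogg1-/-, and 9.02, 4.83 and 15.2 in DKO, and its 4 genotypes overlapped.

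**Figure D5:**
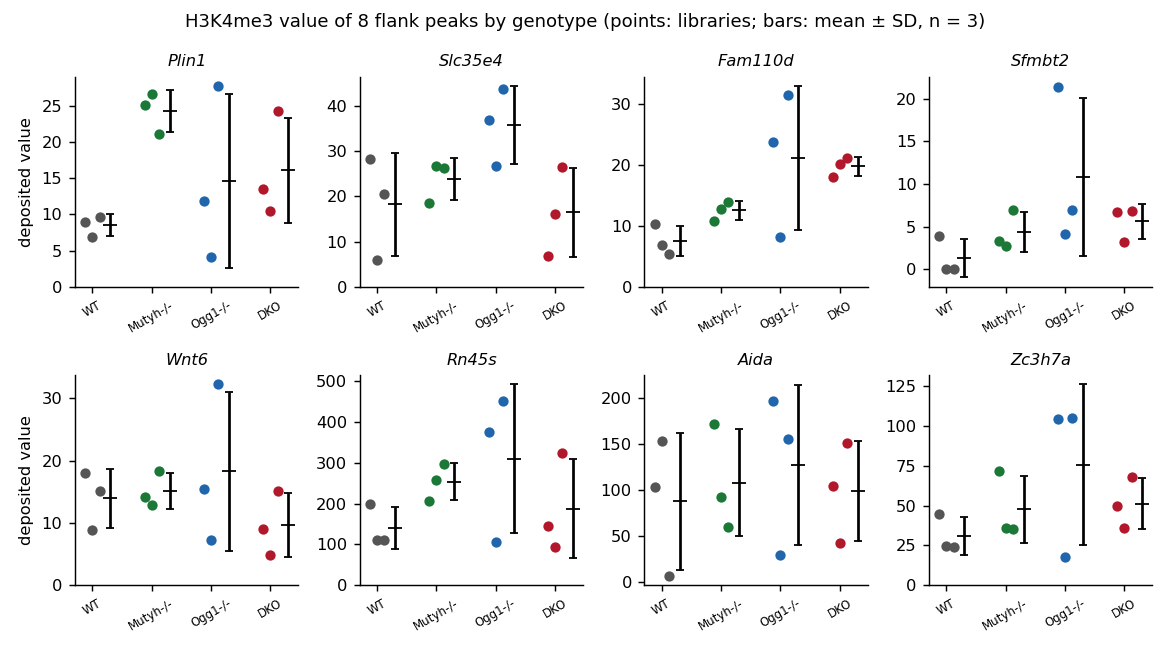
Deposited H3K4me3 value of 8 flank peaks in each NeuN+ library (points), by genotype, with mean ± SD of the 3 libraries (bars); axes differ between panels and start at or below 0. Plin1 in Mutyh-/- and Fam110d in DKO do not overlap WT, Slc35e4 in Ogg1-/- does, and the libraries of Rn45s, Aida and Zc3h7a spread widely within genotypes.

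A count of peaks whose groups did not overlap needs no model. In Mutyh-/-, 12 flank peaks (10.0%) had all 3 libraries above all WT libraries, where 2.16% of all peaks did, and 7 (5.83%) had all below, where 3.61% did. In Ogg1-/- these were 2 above (2.83% of all peaks) and 0 below (0.855%), and in DKO 5 above (3.1%) and 1 below (1.92%). The counts depended on the scaling of libraries. After division by the reads in peaks of each library, 11 flank peaks were above and 3 below in Mutyh-/-, beside 5.08% and 4.88% of all peaks, 8 and 10 in Ogg1-/-, beside 5.62% and 4.49%, and 10 and 5 in DKO, beside 5.02% and 4.76%. The 12 in Mutyh-/- included Rn45s, Malat1, a nuclear non-coding RNA, Fat1, an atypical cadherin, Wnt8b, Plin1 and Fam110d. Their margins differed, and the one at Plin1 was wide. At Rn45s the lowest Mutyh-/- value was 206 and the highest WT value 199. The closest libraries at Malat1 held 17 reads (Mutyh-/- replicate 2) and 16 reads (WT replicate 2). The knockout contrasts share the 3 WT libraries.

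For the 33 genes with both peaks, the flank-to-core difference was compared between genotypes by limma on the difference in each library. At an adjusted p under 0.05 there were 0 genes in each contrast, with 0, 1 and 2 at an unadjusted p under 0.05 in Mutyh-/-, Ogg1-/- and DKO (0%, 3.03% and 6.06% of the 33). The 1 in Ogg1-/- was Scn2b, a sodium channel beta subunit, with a change of -1.44 (SE 0.64). In DKO they were Speer4cos, with -3.29 (SE 1.22), and Id2, an inhibitor of basic helix-loop-helix factors, with 1.58 (SE 0.74). Speer4cos had the lowest mean value of the 120 flank peaks, 2.77, and its flank held 0, 8 and 1 reads in DKO. The Id2 flank held 0 reads in WT replicate 2. Without WT replicate 2, 0 of the 33 genes had an unadjusted p under 0.05 in DKO by limma. The next by p were Ppp1r15a, a phosphatase subunit of the stress response, and Tnrc18 in Mutyh-/-, with changes of -1.51 and 1.54, and Srrm3, a splicing factor of neurons, in Ogg1-/-, with -1.41.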

How the data were processed

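H3K4me3 ChIP-seq was done on NeuN+ nuclei, with 3 libraries for each of 4 genotypes, grouped by the labels. The authors aligned reads to GRCm38/mm10 with Bowtie2 (2.3.5.1), called enriched regions with epic2 (SICER in the submitters' processing notes), kept regions present in several replicates, counted reads with DiffBind (3.10.1) and annotated peaks with ChIPseeker (1.36). Handling of duplicates, blacklisted regions and input is not given in the sources used here. Deposited values were a signal, the reads of a peak scaled by the authors with 1 constant per library, and 100% of values were whole multiples of it (tolerance 0.01 reads), so reads were recovered (96023 to 548706 per library). Depth limits single peaks more than medians over peaks.

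The deposited signal was tested with limma (3.58.1), limma-trend on log2(value + 1), 12 libraries, genotype as the only term. Adjusted p is the Benjamini-Hochberg value over all 12628 peaks of a contrast, or over 33 genes. edgeR (4.0.16) and DESeq2 (1.42.0) on recovered reads were alternatives. Fold changes on the log2(value + 1) scale understate changes at low peaks. Medians were compared with exact permutation tests, two-sided. Scripts were tested on simulated data of all peaks, without the authors' scaling. There an adjusted p under 0.05 recovered 14% of 2-fold changes by limma and 21% by edgeR. The changed peaks were drawn from all peaks, so recovery at flank peaks was not measured. Of the unchanged simulated peaks, 6.16% by limma and 5.08% by edgeR met the DER rule. In the main limma fit of the real data, 0.911%, 0.966% and 1.46% of all peaks did, so the simulation did not match the data in this respect. Where replicates come from separate pools of animals, as the methods state, p-values measure the spread between pools.

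Sequence features came from GRCm38.p6, whose coordinates match mm10, and starts and features from GENCODE M21. Members and lists were chosen with earlier results of these data known. The naming rule took genes the study names, in each contrast the 3 flank peaks with the smallest p, the 5 with the highest mean, the 5 largest and 3 smallest same-gene differences (sum of means at least 20), up to 3 genes per list and, for same-gene changes, the 2 smallest p per contrast. MicroRNA genes, genes overlapping other tables, non-overlapping genes and genes at the edge of the rule were named after their values were seen. Bisulfite and RNA data were not analysed here.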

Additional observations from a re-analysis of the deposited data

How the results depend on the processing

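The flank level below core kept its direction and its side of the threshold under every alternative run, from -0.18 to -0.71, and leaving out 1 library gave -0.67 to -0.66. The same-gene difference did so too, between -0.67 and -0.44 (-0.57 to -0.50 leaving out 1 library), except without the lowest 25% of peaks (0.11), where 4 of 33 genes were left. No alternative could be run for peaks at 2 to 3 kb only, since there were 0. The alternatives by CpG content, by side of the start, by distance to a core peak, by the Rn45s and Aida peaks and for genes within 5 kb were chosen after seeing the data.

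The change of the flank level against WT turned sign with means over peaks (0.0426 in Mutyh-/-, 0.0828 in DKO), without the lowest 25% of peaks (0.12 in Mutyh-/-, 0.13 in DKO), without WT replicate 3 in Ogg1-/- (-0.00987) and without WT replicate 2 in DKO (0.00893). The cause was not tested, and no main value passed the threshold. Leaving out 1 library, it ranged from -0.0994 to -0.00288 in Mutyh-/-, -0.00987 to 0.0867 in Ogg1-/- and -0.0884 to 0.00893 in DKO. The change of the read share ranged from 0.0572 to 0.102, 0.0494 to 0.132 and 0.00954 to 0.0798 percentage points, and kept its sign under each alternative.

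Flank DERs numbered 1 in Mutyh-/- (2 by limma with TMM factors, 0 without the lowest 25% of peaks, which removes Plin1), 3 in Ogg1-/- (8 by edgeR with TMM factors, 6 by limma with TMM factors, 3 of them higher, 5 in a fit of 6 libraries) and 1 in DKO (2 by edgeR with TMM factors, 2 by DESeq2, 3 by limma with TMM factors, 2 at a pseudocount of 0.5, 0 without the lowest 25%). Leaving out 1 library gave 0 to 3 in Mutyh-/- (0 without Mutyh-/- replicate 1, 2 without WT replicate 2 or 3, 3 without WT replicate 1, of which 2 were higher, and 3 without Mutyh-/- replicate 3, of which 1 was higher), 2 to 12 in Ogg1-/- (6 without WT replicate 1, 12 without Ogg1-/- replicate 2, of which 11 were higher, 10 without Ogg1-/- replicate 3, of which 1 was higher) and 1 to 2 in DKO (2 without WT replicate 1, WT replicate 2 or DKO replicate 1). Same-gene changes numbered 0 in each contrast, and 1 in DKO without DKO replicate 2. At Speer4cos, the gene with the smallest p in DKO in the main fit, the flank held 0 and 1 reads in DKO replicates 1 and 3. Its core value was 0 in every WT library, so changes at this gene rest on very few reads.

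No pairing by replicate number was seen (correlations of deviations between same-numbered WT and knockout libraries from -0.101 to 0.0687). Libraries with different numbers were not compared, so this cannot show that the replicates were unpaired. With a replicate block there were 1, 5 and 2 flank DERs, and the mean changes of level and share kept their values by construction.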
